A study of Mus musculus with 2 samples.

Results

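Antisense RNAs are transcribed from the opposite DNA strand of another gene, here called the sense gene. Of 2014 autosomal genes typed as antisense in GENCODE M21 and present in the deposited quantifications, 179 (8.89%) had at least 1 TPM (a level corrected for transcript length and scaled to the same total in each library) in both libraries, and these form the set described here. Both quantifications list 43346 annotated genes. Their level chose the members, so the level itself is a description. Nespas, Kcnq1ot1 and Airn were left out by the selection rule. Each member was set beside the protein-coding gene that overlaps it on the other strand, and where several overlap, beside the one with the longest overlap. Overlap was taken between whole genes, so a member's TPM can include transcripts that do not reach the sense gene.

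The samples came from C57BL/6J mice 8 weeks old, from which frontal cortex was taken. They are 2 biological replicates of a single group, each described as tissue pooled from males and females, with no treatment or engineered allele named. Polyadenylated RNA over 200 nt was sequenced as stranded paired reads. Expected counts (the estimated number of fragments per gene) summed to 106084891 in replicate 1 and 90476207 in replicate 2. The sex-linked RNAs go against the pooled label in both libraries. Xist, made by the inactive X chromosome of females, had 107 and 77696 counts, and the Y-linked Eif2s3y 7150 and 3, so replicate 1 shows almost none of the female RNA and replicate 2 almost none of the male RNA. Sex and replicate therefore cannot be told apart in any ratio between the libraries. The activity-regulated Fos also differed, at 19.7 and 52.2 TPM. Markers of excitatory neurons (Slc17a7, 447 and 401 TPM) and of GABAergic neurons (Gad1, 468 and 631 TPM) were present, as was Doc2g, a gene known from the olfactory bulb, at 149 and 161 TPM. With 1 group and 2 libraries no comparison of conditions exists, and an exact two-sided sign-flip test could not give a p below 0.5, so spread is given as SD (n = 2) and no test is reported.

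An antisense RNA can share bases with its sense gene at its 5′ end (head to head), at its 3′ end (end to end), lie wholly inside the sense gene, or span it. Known antisense RNAs act in several ways: some recruit chromatin modifiers to the locus, some interfere with transcription on the other strand, some pair with the sense RNA, and many have no known function. In cortex, well-studied examples lie opposite the homeobox genes of interneurons. Without strand information, reads from both partners cannot be told apart, so the strand of these libraries was examined first.

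The libraries kept the strands largely apart. The check used 7 antisense genes whose exons lie wholly within exons of a sense gene with a mean of at least 50 TPM. Reads counted on the wrong strand would show there. Gm28364 and Gm28221 had 0 counts in both libraries, opposite 12270 and 10579 counts of Aamp and 34049 and 27339 counts of Ncald. For 6 of the 7 the antisense count was at most 0.0941% of the sense count. The exception was Gm11175, the only member among the 7, with 152 and 118 counts opposite Jund, a subunit of the AP-1 transcription factor, which is 1.04% and 0.944% of the Jund count. On the TPM scale Gm11175 was at 5.48 and 4.82 against 65.9 and 62.6 for Jund. A sense count covers the whole sense gene, not only the shared exons, so shares by count can be smaller than shares by TPM. Among the other 6 genes the TPM share reached 1.28% (Gm26716, on 9 counts in replicate 2). A further limit on low pairs is that 3 members with exon overlap were under 1% of their sense gene's TPM. These were 9430041J12Rik opposite Ttyh1 (0.583% and 0.677%), Gm4419 opposite Ywhaq (0.625% and 0.666%) and 4930488L21Rik opposite Gnao1 (0.467% and 0.527%). These shares lay below the highest TPM share among the other 6 genes of the check, which was 1.28%. In 173 of 179 members the expected count was a whole number in both libraries, and in 129 of the 135 with exon overlap, so few members had reads divided with another gene. Reads counted whole on the wrong strand would not show in this figure, so it does not bear on the strand check.

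The RNA was selected by its poly(A) tail, and the 3′ ends of the leading transcripts are shown because they carry, or lack, the signal AATAAA that precedes a poly(A) site. The leading transcript is the one with the largest share of the gene's TPM. The sequences below are the last 50 bases of GENCODE M21 transcripts of 8 abundant members, none of them within an exon of a protein-coding gene, with AATAAA in capitals.
Rab10os: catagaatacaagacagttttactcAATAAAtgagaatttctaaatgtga
Rab26os: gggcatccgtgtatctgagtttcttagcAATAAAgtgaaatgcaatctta
2810468N07Rik: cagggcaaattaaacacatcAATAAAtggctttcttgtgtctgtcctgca
Tug1: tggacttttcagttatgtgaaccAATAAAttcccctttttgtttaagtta
Gt(ROSA)26Sor: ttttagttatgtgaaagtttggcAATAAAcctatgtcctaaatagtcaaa
Gm16536: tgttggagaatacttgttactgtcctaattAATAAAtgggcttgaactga
A830036E02Rik: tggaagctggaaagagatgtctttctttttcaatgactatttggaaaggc
4933431E20Rik: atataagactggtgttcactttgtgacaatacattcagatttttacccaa
In the first 6 the signal starts 20 to 30 bases before the annotated end, and the last 2 hold neither AATAAA nor the variant ATTAAA in this window. Among the 12 most abundant members, E130307A14Rik, Gm2415 and Tmem147os, not shown, also hold neither. In Sp3os, not shown either, AATAAA starts 9 bases before the end. The Rab10os end is at chr12:3241361-3241410 (mm10, plus strand) and the Tug1 end at chr11:3639794-3639843 (minus strand).

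Over all members with a sequence, AATAAA occurred in the last 50 bases of 83 of 178 leading transcripts (46.6%), and ATTAAA without it in 20. The share was 52.7% for lincRNA genes at 1 TPM or more, 63.4% for protein-coding genes at that level and 31.3% for the antisense genes not chosen. Only the transcript strand was searched, and a transcript with both motifs counts under AATAAA. The absence of these letters says nothing beyond this window and these annotated ends. The leading transcripts were short, with a median of 1110.5 nt against 1320 nt for lincRNA genes and 2831 nt for protein-coding genes at the same threshold. They had a median of 2 exons, and 27 (15.2%) had a single exon.

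The members gave little of the RNA. Together they held 0.0901 ± 0.00485% of all TPM (SD, n = 2), and the 10 most abundant held 35.1 ± 0.464% of that. Only 22 members averaged 10 TPM or more, 40 averaged 5 or more, and 78 were under 2, with a median of 2.42 TPM. Counts behind a member ran from 18 to 12225, with medians of 230 and 199 in the 2 libraries. The threshold fell in a dense range of values. Just inside it were Myhas (1.00 and 1.42 TPM), Gm20511 (1.51 and 1.00), Gm15941 (1.00 and 1.1), Gm15545 (1.26 and 1.00) and Panct2 (1.04 and 1.00). Just outside were Gm26592 (1.24 and 0.99 TPM), Gm28800 (1.12 and 0.98), A730056A06Rik (1.40 and 0.98), 6330562C20Rik (1.36 and 0.98) and A230005M16Rik (0.97 and 1.05). A further 34 genes passed in replicate 1 alone and 8 in replicate 2 alone, while 762 of the genes not chosen had 0 counts in both.

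Rab10os (ENSMUSG00000079179.5, chr12:3235504-3250377, plus strand, mm10) had the highest mean level, at 48.2 and 59.7 TPM in replicates 1 and 2. It overlaps the 3′ end of Rab10, a small GTPase of vesicle traffic, over 2950 nt, 143 of them exonic in both. The leading transcript of Rab10os, with 57.97% and 59.55% of its TPM, ends at 3241410 and does not reach Rab10, whose lowest base is 3247428. Rab10 was at 54.5 and 47.4 TPM, so the partners stood level, and which one was higher changed from library to library. A830036E02Rik (chr11:99416956-99425497, plus strand) was at 56.0 and 51.6 TPM, and Krt12, the keratin of corneal epithelium that it meets head to head, at 3.47 and 4.76 TPM. E130307A14Rik (chr10:39621412-39732007, minus strand) had 54.1 and 42.4 TPM against 1.46 and 0.85 TPM for Traf3ip2, an adaptor of interleukin 17 receptor signalling. In both of these pairs the antisense RNA was above the sense gene in each library. 4933431E20Rik (chr3:107888850-107896213, minus strand) had 37.3 and 28.0 TPM. Its longest overlap is with Eps8l3, listed at 0.01 and 0 TPM, and it also overlaps Gstm5, a glutathione S-transferase, at 189 and 190 TPM. Its place relative to its sense gene therefore depends on which partner is taken.

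Rab26os (chr17:24528248-24528744, plus strand) lies inside Rab26, a GTPase of secretory vesicles, and had 24.8 and 28.9 TPM against 61.0 and 47.9 TPM for Rab26. Its leading transcript is 298 nt long, and its TPM rested on 195 and 184 counts, whereas Rab10os rested on 10064 and 11511. 2810468N07Rik (chr17:25570358-25575043, plus strand) had 23.8 and 24.3 TPM, slightly above 21.3 and 21.3 TPM for Sox8, a transcription factor of the oligodendrocyte lineage that it meets head to head. Tug1 (chr11:3639785-3649673, minus strand), a long noncoding RNA studied in retina and brain, had 22.4 and 20.1 TPM. Its head-to-head partner Morc2a, a chromatin ATPase, had 16.2 and 12.9 TPM. Gt(ROSA)26Sor (chr6:113067428-113077333, minus strand), the transcript of the Rosa26 locus used for targeted transgenes, had 21.4 and 17.4 TPM against 10.7 and 8.97 TPM for Thumpd3. The leading transcript of Gt(ROSA)26Sor (64.5% and 72.7% of its TPM) ends at 113070398 and does not reach Thumpd3, whose last base is 113068273. In these last 3 pairs the antisense RNA was above the sense gene in both libraries, by 0.18 ± 0.025, 0.55 ± 0.12 and 0.98 ± 0.036 on the log2 scale (SD, n = 2).

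The list of the 12 most abundant closed with Gm2415, Tmem147os, Sp3os and Gm16536. Gm2415 had 19.9 and 17.6 TPM, above the integrin gene Itga9 (1.29 and 2.21 TPM) and near its other partner Ctdspl (17.4 and 14.8 TPM). The leading transcript of Gm2415 took 98.2% and 98.3% of its TPM. That transcript ends at chr9:118924452 (minus strand) and does not reach Itga9, whose last base is 118901003. Tmem147os had 17.6 and 17.3 TPM and spans Gapdhs, the sperm form of glyceraldehyde-3-phosphate dehydrogenase, which was listed at 0 in both libraries. Sp3os had 19.2 and 14.4 TPM. Its longest overlap is with Gm11084, listed at 0 in both libraries, and it overlaps the transcription factor gene Sp3 as well, at 17.9 and 14.7 TPM. Gm16536 had 17.3 and 15.6 TPM, below the 27.2 and 26.3 TPM of Bace1, the β-secretase that cleaves the amyloid precursor protein.

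**Figure D1:**
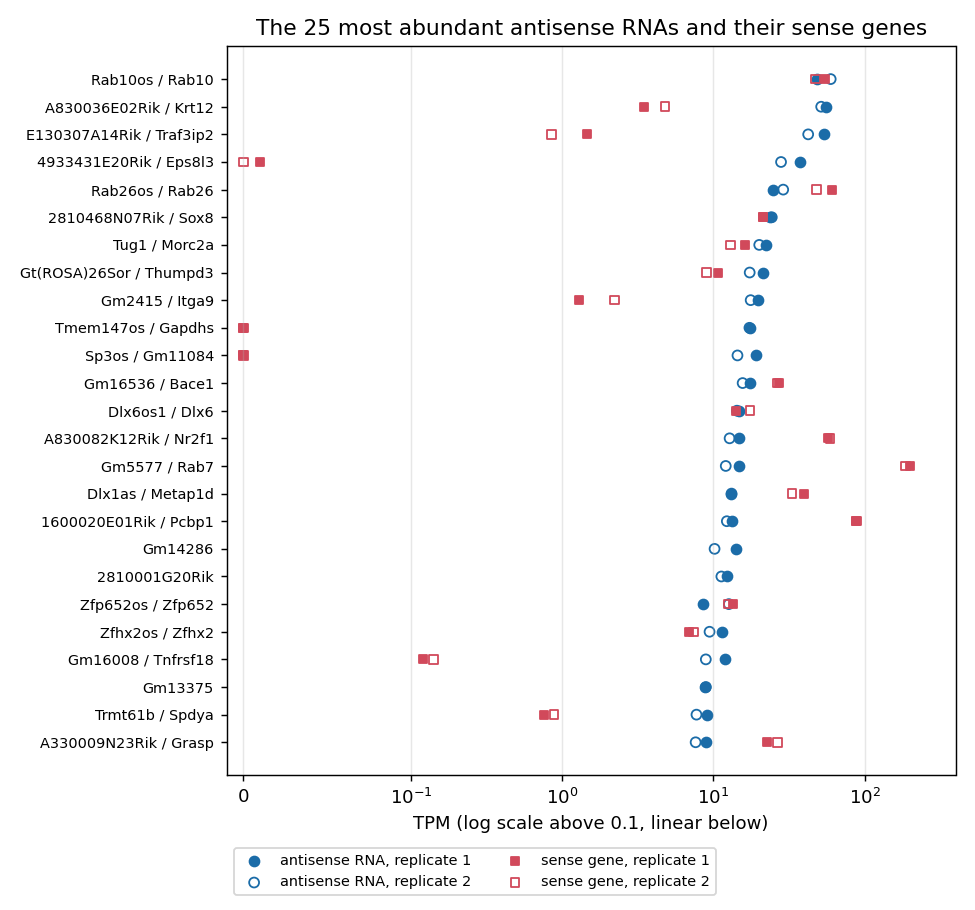
TPM of the 25 most abundant antisense RNAs (blue circles) and of the protein-coding gene with the longest overlap (red squares), with replicate 1 filled and replicate 2 open; the axis is logarithmic above 0.1 and linear below. Antisense levels lie close together in the 2 libraries, while their sense genes run from 0 (Gapdhs, Gm11084) to over 180 TPM (Rab7).

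Of the 10 most abundant members whose names join a coding gene's symbol with os, as or ot, the named gene was an overlapping partner for Rab10os, Rab26os, Sp3os, Dlx6os1, Dlx1as, Zfp652os and Zfhx2os. Zfp652os had 8.55 and 12.6 TPM beside 13.5 and 12.5 for Zfp652, a zinc finger gene, and Zfhx2os had 11.4 and 9.42 beside 6.92 and 7.40 for the homeobox gene Zfhx2. Atad3aos (7.77 and 6.79 TPM) overlapped Vwa1, Tmem147os overlapped Gapdhs, and Ttc39aos1 (4.84 and 8.87 TPM) overlapped no coding gene in M21. A name is thus not always a guide to the overlap in this annotation. Transcript use was stable for most members. Of 103 members with 2 or more transcripts, 91 had the same leading transcript in both libraries, and in 38 it took at least 80% of the gene's TPM in both. E130307A14Rik had the most transcripts, 13, with 37.5% and 36.6% in its leading one. Gm14964, opposite the neurexin gene Nrxn2, was among the 12 that changed. Of its 2 transcripts, 1 took 33.0% of the gene in replicate 1 and 90.9% in replicate 2, on 104 and 77 counts.

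A larger share of members than of the other antisense genes lay head to head with the sense gene. Of the 179, 68 (38.0%) lay head to head, 41 (22.9%) end to end, 41 (22.9%) inside the sense gene and 9 (5.03%) spanned it, and 20 (11.2%) had no protein-coding partner. Among the 1835 antisense genes not chosen the shares were 19.3%, 13.8%, 54.3%, 3.05% and 9.54%. Put the other way, 16.1% of all head-to-head antisense genes reached the threshold, as did 13.9% of end-to-end genes and 13.8% of spanning genes. The share was lowest, at 3.95%, for those inside their sense gene, and was 10.3% for those with no protein-coding partner. The position was not used by the rule, but exon length and annotation status were not matched between the sets, so their part in this difference was not tested. With a threshold of 2 TPM the head-to-head share was 34.4%, and with 0.5 TPM it was 38.5%. The starts of head-to-head partners were a median of 777.5 nt apart, and 42 of 68 pairs had them within 1000 nt. These distances were not set beside those of the 355 head-to-head antisense genes not chosen.

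**Figure D2:**
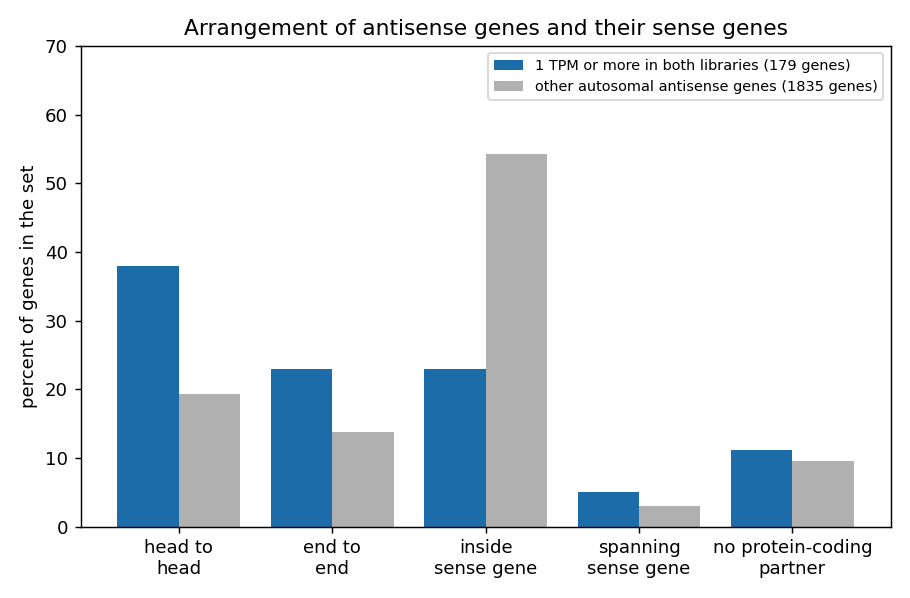
Percent of the 179 members (blue) and of the other 1835 autosomal antisense genes (grey) in each arrangement with the protein-coding gene of longest overlap. Head-to-head genes make up 38.0% of members and 19.3% of the others, and genes inside their sense gene 22.9% and 54.3%.

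For 159 members a protein-coding gene overlaps on the other strand, and these are 156 distinct sense genes, because Usp54, Pi4kb and Zfhx2 each lie opposite 2 members. Overlaps ran from 3 to 72951 nt with a median of 2182 nt, and exons of both genes overlapped in 135 pairs, by a median of 368 nt. In 25 members more than 1 coding gene overlapped. Some head-to-head pairs share only a few exonic bases, shown here because they are the entire stretch over which these spliced RNAs could be complementary. In chr2:126676034-126676047 and chr5:123344265-123344277 (mm10) the shared exon bases, each read 5′ to 3′ on the named gene's strand with all of the overlap in capitals, are as follows.
Gm27003: CGTGGTCCTGGAAG
Gabpb1: CTTCCAGGACCACG
Gm15860: CCAGAGGCCGCAG
Bcl7a: CTGCGGCCTCTGG
Gm27003 had 5.55 and 4.51 TPM beside 11.1 and 10.4 TPM for Gabpb1, a subunit of the GA-binding transcription factor. Gm15860 had 3.75 and 2.42 TPM beside 22.4 and 23.4 TPM for Bcl7a, a subunit of the BAF chromatin remodelling complex. In both pairs the sense gene was above the antisense RNA in each library.

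Most sense genes were expressed. Of the 156, 128 (82.1%) had at least 1 TPM in both libraries, against 76.5% of 1487 sense genes of the antisense genes not chosen and 61.9% of all 20337 autosomal protein-coding genes. Their median level was 14.6 TPM, against 8.19 and 4.45 TPM in those 2 sets. Restricted to genes at 1 TPM or more, the medians were 18.6, 13.7 and 14.3 TPM. The median sense level was 16.0 TPM for head-to-head members, 18.7 for members inside a sense gene, 8.31 for end-to-end members and 1.49 for members that span their sense gene.

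The sense gene was usually the more abundant partner. A partner was called higher when the deposited TPM intervals of the pair did not overlap, in the same direction, in both libraries. By this rule the sense gene was higher in 114 of 159 pairs (71.7%), the antisense RNA in 34 (21.4%), and 11 pairs were not separated. Among the 1660 pairs of antisense genes not chosen, the shares were 85.8% and 1.02%. The threshold on the antisense level enters this contrast, so nothing is read from the difference between the sets. The median log2 ratio of antisense to sense TPM, with 0.01 added to each, was −2.09, with per-library medians of −2.14 and −2.17 and quartiles at −3.74 and −0.15. Taking the partner with the highest TPM in place of the longest overlap, the antisense RNA was higher in 29 pairs and the sense gene in 119.

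The balance differed between arrangements. The antisense RNA was higher in 10 of 68 head-to-head pairs, 15 of 41 end-to-end pairs, 5 of 41 pairs with the antisense gene inside and 4 of 9 pairs in which it spans the sense gene. The median log2 ratios were −2.40, −1.27, −2.60 and −0.12 in the same order. Over the 159 pairs the antisense and sense levels showed almost no rank relation (Spearman's coefficient 0.0071, Pearson's r of log2 levels −0.057), given as a description, since the pairs share both libraries and the antisense levels are cut off at 1 TPM.

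**Figure D3:**
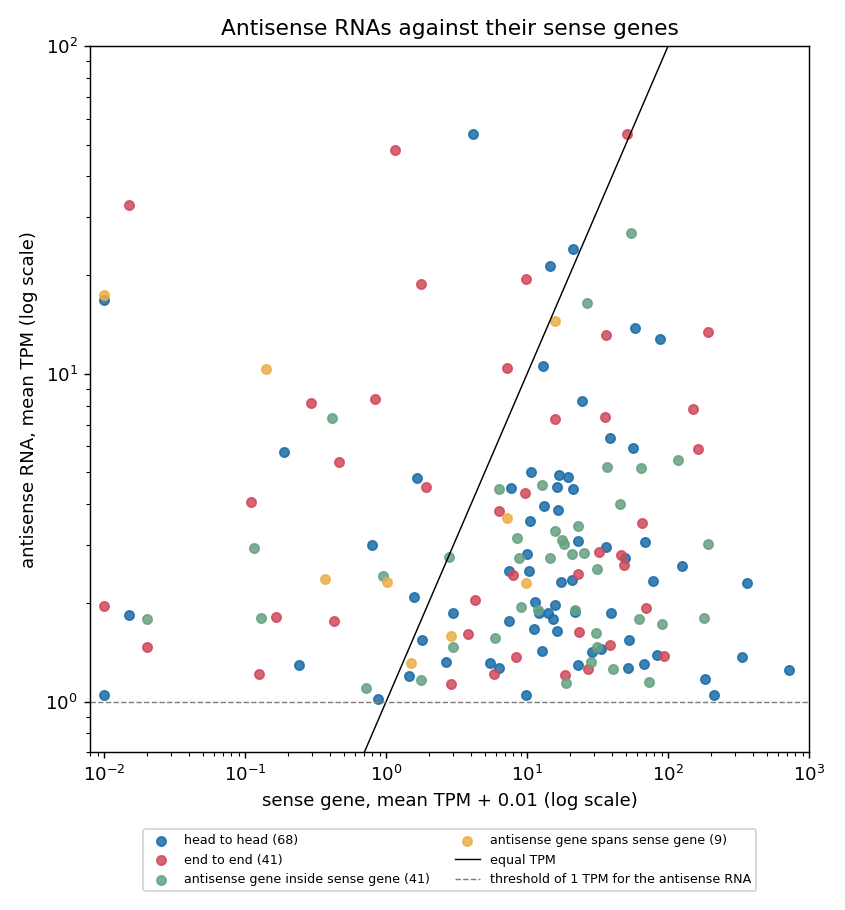
Mean TPM over the 2 libraries of each antisense RNA (vertical) and of its sense gene (horizontal, plus 0.01) for 159 pairs on logarithmic axes, coloured by arrangement; the solid line marks equal TPM and the dashed line the threshold of 1 TPM that every antisense RNA had to pass. Most pairs lie to the right of the line, where the sense gene is the more abundant partner.

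The widest excess of antisense RNA was found where the sense gene was silent or nearly so. Members averaged at most 54.0 TPM, so ratios this high need a sense level near 0, and nothing further is read from this. The 8 highest ratios were those of 4933431E20Rik, Tmem147os and Sp3os, described above, and of Gm17116, 1700124L16Rik, Gm15941, Gm13601 and 2900009J06Rik. Gm17116 (2.24 and 1.66 TPM) lies opposite the testis protease gene Prss52, and Gm15941 (1.00 and 1.1 TPM) opposite 4930447A16Rik, and both sense genes were listed at 0 in both libraries. 1700124L16Rik (1.75 and 1.93 TPM) lies opposite Ankrd53, at 0.01 and 0 TPM. Gm13601 (2.09 and 1.49 TPM) lies opposite Xirp2, a gene of striated muscle, and 2900009J06Rik (1.38 and 1.55 TPM) opposite Acmsd, an enzyme of tryptophan breakdown, both at 0.01 TPM in each library. No fold is given for these pairs because the sense level is at or near 0, and their order depends on the 0.01 added to each TPM. The eighth place is a near tie, with log2 ratios of 6.202 for 2900009J06Rik and 6.201 for Gm16008. With posterior mean TPM, Gm15941 (4.78) falls below E130307A14Rik (5.01) and Gm16008 (4.90).

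The lowest ratios were found opposite abundant sense genes, as they must be when every member is cut off at 1 TPM. Gm26703 had 1.17 and 1.32 TPM opposite Sparcl1, a matrix protein secreted by astrocytes, at 778 and 670 TPM, and its log2 ratio was −9.17 ± 0.27 (SD, n = 2). 4930488L21Rik had 1.01 and 1.09 TPM opposite Gnao1, a G protein α subunit, at 216 and 207 TPM. 9430041J12Rik had 2.17 and 2.42 TPM opposite Ttyh1, a membrane protein of glia, at 372 and 358 TPM. The coding strand was higher by over 100-fold in these 3 pairs, and the last 2 are among those under the level seen in the strand check. Gm4419 had 1.22 and 1.13 TPM opposite the 14-3-3 gene Ywhaq, at 195 and 170 TPM. This pair was also over 100-fold apart and under the level seen in the strand check. Gm15624 had 2.06 and 1.54 TPM opposite Dctn1, a subunit of dynactin, at 191 and 169 TPM. Gm16861 had 1.51 and 1.24 TPM opposite the ubiquitin ligase gene Mgrn1, at 97.0 and 91.3 TPM. Gm14964 had 2.83 and 3.20 TPM opposite Nrxn2, at 195 and 190 TPM. The Gm26703 and Gm15624 pairs share no exon bases.

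Among members inside a sense gene, Gm13205 stood apart from most, with 6.89 and 7.79 TPM against 0.43 and 0.38 TPM for Casz1, a zinc finger transcription factor gene. Among those that span it, Gm16008 had 11.8 and 8.90 TPM against 0.12 and 0.14 TPM for Tnfrsf18, a receptor of the tumour necrosis factor family.

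Several transcription factor genes of forebrain development are known to carry antisense RNAs. Of 39 antisense genes opposite a listed transcription factor, 5 were members (12.8%, against 8.89% of all autosomal antisense genes). Dlx6os1 had 14.7 and 14.3 TPM and Dlx6 14.2 and 17.5 TPM, so these partners, which belong to the interneuron programme, stood at like levels. Dlx1as had 13.0 and 13.2 TPM and Dlx1, of the same programme, 93.2 and 97.8 TPM. The longest overlap of Dlx1as is with Metap1d, a mitochondrial methionine aminopeptidase, at 39.9 and 33.0 TPM. 2810468N07Rik was slightly above Sox8 in both libraries, as given above. Zeb2os had 4.32 and 3.72 TPM and Zeb2, a repressor in interneuron and glial development, 43.9 and 46.5 TPM. Emx2os had 1.22 and 1.41 TPM and Emx2, a homeobox gene of cortical patterning, 6.25 and 4.71 TPM. Dlx1 and Zeb2 were above their antisense RNA in both libraries without overlap. The remaining 34 did not reach the threshold in both libraries, among them Pax6os1 (0.34 and 0.45 TPM, with Pax6 at 24.6 and 19.8) and Sox6os (0.51 and 0.13 TPM, with Sox6 at 2.59 and 2.18). Opposite Sox5, at 11.4 and 12 TPM, Sox5os1 to Sox5os5 were each listed at 0.

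Sequence upstream of a sense gene start is shown for 2 head-to-head pairs with unlike balance, because the antisense exon covers all of it and it is free of protein-coding exons. Each run is the 250 bases before the RefSeq start (GRCm38.p6, minus strand), 5′ to 3′ on the sense strand, with CG steps in capitals. Sox8 is at chr17:25570687-25570936 and Krt12 at chr11:99422260-99422509.
Sox8: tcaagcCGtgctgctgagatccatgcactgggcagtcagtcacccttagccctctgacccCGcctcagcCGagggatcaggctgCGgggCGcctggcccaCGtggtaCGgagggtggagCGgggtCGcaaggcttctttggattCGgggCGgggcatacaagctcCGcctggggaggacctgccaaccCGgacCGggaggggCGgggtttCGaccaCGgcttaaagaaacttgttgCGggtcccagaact
Krt12: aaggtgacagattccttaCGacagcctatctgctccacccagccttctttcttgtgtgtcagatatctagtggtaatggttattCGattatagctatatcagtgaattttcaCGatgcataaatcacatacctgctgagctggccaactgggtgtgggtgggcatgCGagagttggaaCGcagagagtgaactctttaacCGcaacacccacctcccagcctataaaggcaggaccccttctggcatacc
The Sox8 run holds 18 CG steps and 65.6% G and C, and the Krt12 run 6 and 48.4%. Over whole promoter windows of 300 bases, a CG count of at least 0.6 of that predicted from base composition was found in 36 of 55 matched sense genes of head-to-head members (65.5%) and in 67 of 117 matched sense genes of all members (57.3%). It was found in 61 of the 103 members that matched the RefSeq table (59.2%). The share was 51.7% for all matched autosomal coding genes, 73.8% for those at 1 TPM or more, and 35.8% for all 32851 promoters in the table. Head-to-head sense genes at 1 TPM or more had 67.3%, a share below that of expressed coding genes at large.

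The 20 members with no coding partner often began beside one. In 14 of them a protein-coding gene started on the other strand within 1000 nt of their own start. This distance was not measured for the 175 antisense genes not chosen that lack a partner, so the share is not shown to be particular to members. 2810001G20Rik (12.2 and 11.3 TPM) starts 16 nt from Cox10, an enzyme of heme A synthesis, at 9.07 and 8.38 TPM. Gm13375 (8.84 and 8.91 TPM) starts 173 nt from Arhgap21, at 68.0 and 55.1 TPM. Ttc39aos1 starts 468 nt from Ttc39a, at 2.21 and 2.18 TPM. Gm14286 (14.0 and 10.2 TPM) had no such neighbour, and the nearest opposite start, of Nnat, was 14609 nt away. Near-start neighbours therefore included genes both above and below their antisense RNA.

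Levels were compared between the 2 libraries with the log2 ratio of replicate 2 to replicate 1 of CPM (counts relative to library size, here with TMM factors). Members differed little between the libraries. Their median ratio was −0.02, with 84 of 179 higher in replicate 2 (46.9%, against 49.9% of all 14210 genes at 1 TPM or more). On the deposited TPM, which shifted the median of all genes by −0.13, 34.1% of members and 22.9% of all genes were higher. Just 1 member passed 2-fold (0.559%, against 0.732% of all genes), and 7 passed 1.5-fold (3.91%, against 2.61%). Among genes with a mean of 1 to 5 TPM, 2.88% of 139 members and 5.29% of all 3554 genes passed 1.5-fold. The median absolute ratio was 0.16 for members and 0.16 for lincRNA genes, above 0.096 for protein-coding genes, which had a median of 5580 counts over both libraries against 432 for members. Counting intervals (exact binomial, 95%) lay above 0 for 25 members (14%, against 27.9% of all genes) and below 0 for 26 (14.5%, against 27%). These intervals narrow with counts, and all genes had a median of 4945.5 counts over both libraries. At a mean of 1 to 5 TPM the shares were 10.8% and 12.2% of members and 14.9% and 23.2% of all genes. Median counts still differed there, at 314 for members and 841.5 for all genes. The 128 expressed sense genes had a median ratio of 0.00, none passed 2-fold, and 1 passed 1.5-fold. Sense genes under 1 TPM in either library are not in this count, among them Klhl14, described below, whose ratio passed 2-fold. In bulk tissue, fewer cells of a type and less RNA per cell cannot be told apart, and sex goes with the replicate here. Cell type markers also differed between the libraries. All 3 microglial markers were lower in replicate 2 (summed level 97.0 and 63.8 TPM, log2 ratios −0.57 to −0.41), and all 3 oligodendrocyte markers were higher (1447 and 1781 TPM, 0.23 to 0.47). The 3 astrocyte markers summed to 378 and 312 TPM (−0.37 to 0.05), the 3 GABAergic markers to 598 and 760 TPM (−0.01 to 0.21) and the 5 excitatory markers to 1206 and 1164 TPM (−0.04 to 0.26). The sums are in TPM and the ratios in CPM, and the 2 scales can differ. Gad1 had 468 and 631 TPM but a ratio of 0.17, and Gad2 had 48.5 and 43.3 TPM and a ratio of −0.01. None of the markers summed here was at 0, and their part in the members' ratios was not tested.

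4930426D05Rik was the member that passed 2-fold. It had 7.37 and 2.28 TPM on 760 and 215 counts, and the log2 ratio was −1.53 (counting interval −1.77 to −1.32). Its head-to-head partner Klhl14, a Kelch-family gene, had 2.34 and 0.97 TPM, and its ratio was −1.15 (−1.35 to −0.96). Both partners were thus lower in replicate 2, beyond counting error. A230077H06Rik and the membrane protein gene Vstm2b, also head to head, were both lower there too, at 7.74 and 5.01 TPM and at 46.8 and 30.2 TPM, with ratios of −0.57 and −0.28.

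The other members chosen for the lowest ratios had sense genes that hardly differed. Gm16124 had 2.39 and 1.33 TPM, a ratio of −0.71, opposite the cullin gene Cul5 at −0.03. 4833422C13Rik had 3.60 and 1.99 TPM, also −0.71, opposite Ssbp2 at −0.02. Gm15265 had 1.79 and 1.14 TPM opposite Pi4kb, a phosphatidylinositol kinase gene (−0.58 and −0.03), and Gm16794 had 1.97 and 1.24 TPM opposite the DNA damage kinase gene Atr (−0.56 and −0.07). At the upper end, Gm37885 had 3.75 and 6.62 TPM and stood at 0.85 (0.63 to 1.09), opposite the calpain gene Capn2 at 0.09. Ttc39aos1, with no overlapping coding gene, followed at 0.80, and Zfp652os at 0.66 beside Zfp652 at −0.05. Myhas had 1.00 and 1.42 TPM and a ratio of 0.63, and its sense gene Myh1, a muscle myosin, was at 0.07 and 0.16 TPM. Gm26756 and Gm26881 were at 0.58 each, beside 0.06 for Bend4 and −0.05 for Fam214b. The antisense RNAs named here are extremes among members whose counting interval lay apart from 0. A difference beyond counting error was thus fixed by that choice, and nothing is read from their sense genes being steadier. The ratios of those sense genes stayed within 0.1 of 0, except for Myh1.

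Across pairs the 2 partners' replicate ratios were weakly related. Spearman's coefficient was 0.061 over 159 pairs (Pearson's r 0.20), and 0.065 (Pearson's r 0.10) over the 131 pairs whose sense gene had at least 1 TPM in both libraries. In 67 of those 131 pairs the ratios of both partners had the same sign. Without the pair of 4930426D05Rik and Klhl14, Spearman's coefficient over all pairs was 0.043. These are descriptions of 2 libraries in which all pairs share the same samples.

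**Figure D4:**
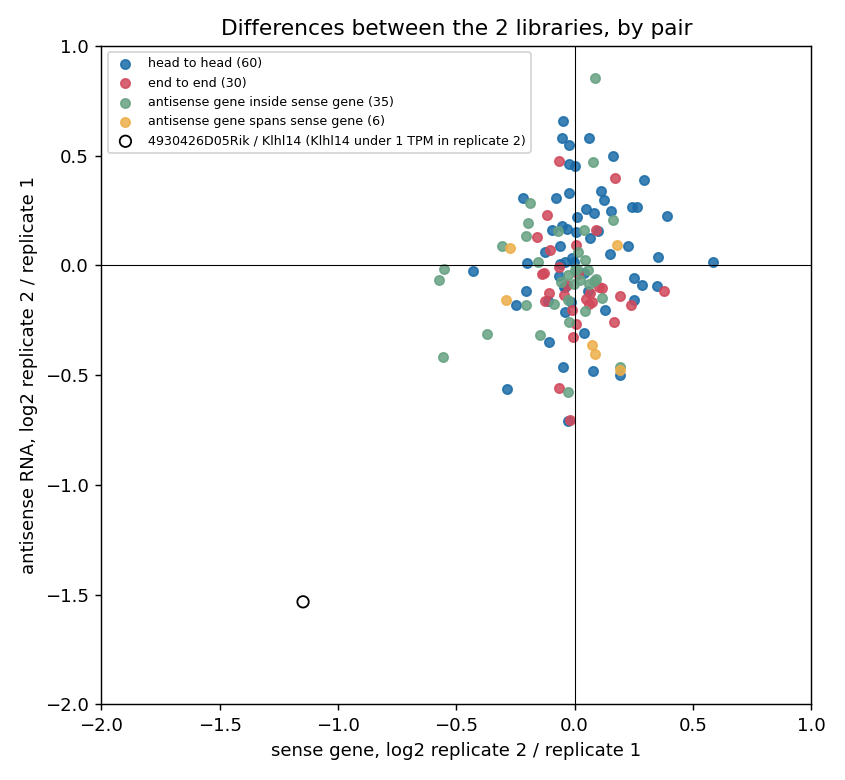
Log2 ratio of replicate 2 to replicate 1 for the antisense RNA (vertical) and its sense gene (horizontal) in the 131 pairs with a sense gene at 1 TPM or more in both libraries, coloured by arrangement; the open circle adds 4930426D05Rik and Klhl14, whose sense gene was under 1 TPM in replicate 2. The points surround 0 with no clear slope, and the open circle lies apart at −1.15 and −1.53.

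RNA decay and double-stranded RNA genes set which noncoding and paired RNAs persist in a cell. Of 28 genes in this list, which holds nuclear decay factors, RNA-editing enzymes and sensors, 27 were measured and all 27 had at least 1 TPM in both libraries, as had 61.9% of autosomal protein-coding genes. Their median was 17.0 TPM. Pabpn1, the nuclear poly(A)-binding protein, had 287 and 230 TPM. Adarb1, an adenosine deaminase that edits double-stranded RNA, had 69.5 and 67.6 TPM, and Zfc3h1, a factor that routes polyadenylated nuclear RNA to the exosome, 61.0 and 53.9 TPM. Their replicate ratios ran from −0.25 to 0.32 with a median of 0.0026, and none passed 2-fold, which 0.732% of all genes did.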

How the data were processed

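For each library the authors deposited quantifications of genes and transcripts, on mm10 and annotation M4 by their text description. Aligner and quantifier: not given in the sources used here. Used as deposited were expected counts, TPM with its interval bounds and FPKM, and percent of a gene's TPM per transcript. Interval bounds were read as given, since their level is not stated.

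Gene types, strands and positions came from GENCODE M21, matched by identifier for 42462 of 43346 genes, and promoters from RefSeq GRCm38.p6. Replicate ratios used CPM of rounded expected counts with TMM scaling (edgeR 4.0.16, R 4.3.3) and a prior count of 2. TPM ratios used a pseudocount of 0.01. Intervals cover counting error only, as PCR duplicates could not be told from separate molecules. SDs have 1 degree of freedom, and nothing says how far replicate spread is technical. Members and lists were chosen with earlier results of these data known. Named genes were the extremes of level, antisense to sense ratio and replicate ratio, the most abundant per arrangement, those named after a partner, transcription factor pairs, those nearest the threshold and the top of the decay list. A pair among the lowest ratios is not reported here.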

Additional observations from a re-analysis of the deposited data

How the results depend on the processing

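Of 74 summary values recomputed under another setting, 63 stayed within tolerance (1.5 times for counts, 0.1 for medians and correlations) and 11 moved. These summary values were not scored for a reversed direction. The number of members was 283 at a threshold of 0.5 TPM and 93 at 2 TPM. The median log2 antisense to sense ratio was −2.31 with the partner of highest TPM, −1.70 with a pseudocount of 1, −3.44 from counts not divided by length, −1.48 for pairs with no exon overlap and −2.25 for pairs with exon overlap. On the deposited TPM the median replicate ratio was −0.14 for antisense RNAs and −0.14 for sense genes, 2 members passed 2-fold, and 26 sense genes were higher in replicate 2 (63 with TMM scaling), which follows the shift of all genes. Of 48 replicate ratios of named members, none moved by over 0.1 with DESeq2 size factors. On the deposited TPM 38 did, and 7 changed sign, each of them at most 0.15 from 0 with TMM scaling. Of 44 log2 antisense to sense ratios, 7 moved beyond their SD or 0.1 with posterior mean TPM, and none changed sign. Splits by direction, the head-to-head share and the correlation without single pairs were added after seeing the data. No paired analysis was possible because the series has a single group. Depth limits members with few counts: the lowest had 18.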

Other observations

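Among the sense genes, 10 that encode ion channels, channel subunits or transmitter receptors were picked out after their values were seen. The sense gene was above its antisense RNA in 8 of the 10 pairs, the antisense RNA in 1, and 1 was not separated. Over all 159 pairs the sense gene was above in 71.7%, so this count is near the general share. Gm26653 had 1.54 and 1.36 TPM opposite Grin2b, an NMDA receptor subunit, at 35.6 and 30.6 TPM. Gm9962 had 1.65 and 1.33 TPM opposite Gabra5, a GABA-A receptor subunit, at 39.7 and 37.7 TPM. Kcnmb4os2 had 5.14 and 6.74 TPM opposite Kcnmb4, a subunit of calcium-activated potassium channels, at 58.5 and 53.3 TPM. Kcnd3os had 2.56 and 2.14 TPM opposite the potassium channel gene Kcnd3, at 22.1 and 19.6 TPM. Gm20387 had 1.77 and 1.81 TPM opposite Grm7, a metabotropic glutamate receptor, at 16.9 and 13.8 TPM. D430036J16Rik (2.20 and 1.98 TPM) and the serotonin receptor gene Htr1b (1.56 and 1.55 TPM) were not separated. The exception was Scn9a, a sodium channel of sensory neurons, at 0.52 and 0.31 TPM, with Gm13629 at 1.71 and 1.82 TPM. Of these 10 pairs, 6 lie head to head.

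The RNAs that the selection rule left out are antisense transcripts of imprinted loci. Airn had 4.71 and 4.09 TPM in the 2 libraries, Kcnq1ot1 0.96 and 0.93 TPM, and Nespas 0.08 and 0.23 TPM. Trmt61b, whose symbol is that of a tRNA methyltransferase, is typed as antisense in M21 and had 9.05 and 7.72 TPM opposite Spdya, at 0.76 and 0.88 TPM.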
